A study of Mus musculus with 17 samples.

Results

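Axon guidance genes encode the cues and receptors with which a growing axon reads its surroundings. Semaphorins act on plexins, the secreted class 3 semaphorins through the co-receptors neuropilin 1 and neuropilin 2. Ephrins act on Eph receptor tyrosine kinases at cell contacts, netrins on Dcc and the Unc5 receptors, and Slits on Robo receptors, and many of these proteins remain in the adult striatum at synapses and dendritic spines. The set described here was 70 autosomal protein-coding genes, chosen by symbol: every gene whose symbol begins with Sema, Plxn, Epha, Ephb, Efna, Efnb, Ntn or Unc5, with Nrp1, Nrp2, Slit1 to Slit3, Robo1 to Robo4 and Dcc. The symbol rule also takes Unc50 and Unc5cl, which are not netrin receptors, and the netrin-G genes Ntng1 and Ntng2, whose products do not act through Dcc. The X-linked members Plxna3, Plxnb3 and Efnb1 were outside the rule.

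Open chromatin was profiled by ATAC-seq, in which a transposase cuts accessible DNA, in nuclei sorted for the neuronal protein NeuN from the nucleus accumbens of both hemispheres of C57BL/6 mice (C57BL/6J in the study's methods) aged 52 to 54 days. Diestrus females, proestrus females and males received cocaine at 10 mg/kg intraperitoneally 1 h before collection, and the control mice of the same sex and stage received no cocaine. No vehicle injection is described for the controls, so a difference between cocaine and control may also hold the injection and handling. Each library pooled 3 animals, and there were 3 libraries in each of the 6 groups except male cocaine, which had 2. The 3 proestrus cocaine libraries are numbered 1, 2 and 4, and the stage of diestrus cocaine library 2 was read from its title because its stage label was empty. Overlapping peaks of the 17 libraries were merged, and the 147420 regions called in at least 2 libraries of 1 group were kept. Of these, 1269 lay in a gene of the set or within 2 kb of it: 86 promoter regions (within 1 kb of the start of a protein-coding transcript), 1156 intragenic regions and 27 flanking regions.

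The libraries carried between 75458 and 157005 peaks. The promoters of all 5 pan-neuronal marker genes were called in all 17 libraries, and so were 7 of 8 promoters of medium spiny neuron markers (Pdyn in 16), while none of the 4 astrocyte marker promoters was called in every library and 3 were called in none. Of 14 other glial and vascular marker genes, 8 had a promoter called in no library, Mbp had one in all 17, and Pdgfra, Pecam1, Csf1r, Pdgfrb and Aif1 had one in 16, 13, 12, 9 and 6. The male controls stood apart at cortical and astrocyte markers. Of 11 regions at 3 marker genes of cortical excitatory neurons (Slc17a7, Neurod6 and Tbr1), 8 to 11 were called in each male control, 2 to 5 in each female library and 1 to 2 in each male cocaine library. Of 15 astrocyte marker regions, 11 to 12 were called in the male controls, 5 to 9 in the female libraries and 2 to 3 in the male cocaine libraries, and of 27 medium spiny neuron marker regions 14 to 20, 20 to 25 and 16 to 17 were called. Of 334 pan-neuronal marker regions 223 to 238, 193 to 264 and 124 to 154 were called. Over all kept regions the same libraries called 64.6% to 70.7%, 45.6% to 66.1% and 36.6% to 42.0%. Every result below that uses the male controls stands beside these values, whose part in it was not tested.

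The sequences shown first are the windows of 201 bases around the strongest summit of 6 intronic regions that carry results below and hold a match to the AP-1 element, TGACTCA or its reverse complement TGAGTCA. AP-1 is the binding element of Fos and Jun proteins, immediate-early transcription factors induced in the striatum by cocaine. A match within 100 bases of the summit was present in 9.14% of the 1269 regions and in 10.1% of all kept regions. The match is in capitals, all windows are written on the plus strand of mm10, and a match is a description of letters, not of binding. The windows are chr5:17692125-17692325 (Sema3c), chr5:84308114-84308314 (Epha5), chr1:62788560-62788760 (Nrp2), chr16:74084708-74084908 (Robo2), chr3:141819229-141819429 (Unc5c) and chr10:94794856-94795056 (Plxnc1).
Sema3c: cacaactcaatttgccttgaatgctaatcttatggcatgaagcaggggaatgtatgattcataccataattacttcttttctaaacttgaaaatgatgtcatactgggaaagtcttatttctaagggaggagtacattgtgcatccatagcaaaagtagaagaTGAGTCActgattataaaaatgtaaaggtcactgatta
Epha5: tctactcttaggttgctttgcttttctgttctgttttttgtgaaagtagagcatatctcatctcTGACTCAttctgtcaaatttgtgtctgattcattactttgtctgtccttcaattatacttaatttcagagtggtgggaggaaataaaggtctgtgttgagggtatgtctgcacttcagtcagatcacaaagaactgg
Nrp2: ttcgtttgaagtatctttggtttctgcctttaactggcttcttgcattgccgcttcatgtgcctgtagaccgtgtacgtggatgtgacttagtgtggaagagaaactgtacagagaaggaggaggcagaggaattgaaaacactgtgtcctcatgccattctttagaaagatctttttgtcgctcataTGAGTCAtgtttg
Robo2: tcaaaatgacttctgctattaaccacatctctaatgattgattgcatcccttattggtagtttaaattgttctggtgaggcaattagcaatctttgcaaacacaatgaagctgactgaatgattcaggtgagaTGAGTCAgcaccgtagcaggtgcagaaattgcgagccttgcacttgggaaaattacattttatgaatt
Unc5c: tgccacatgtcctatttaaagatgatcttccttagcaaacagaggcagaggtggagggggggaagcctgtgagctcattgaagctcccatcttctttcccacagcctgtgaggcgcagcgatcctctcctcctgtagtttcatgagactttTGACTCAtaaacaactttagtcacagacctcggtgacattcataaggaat
Plxnc1: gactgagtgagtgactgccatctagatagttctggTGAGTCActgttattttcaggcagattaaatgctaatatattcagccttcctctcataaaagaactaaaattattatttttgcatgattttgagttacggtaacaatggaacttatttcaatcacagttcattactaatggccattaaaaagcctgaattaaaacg

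Each window held 1 match. The promoters are illustrated by the 250 bases upstream of the RefSeq transcript start (GRCm38.p6, each on the strand of its gene) of Efnb2, the strongest promoter whose summit lay within 1 kb of a start, and of Epha2 and Sema3g, the promoters called in the fewest libraries among those with a promoter region. CpG dinucleotides are in capitals. The windows are chr8:8661243-8661492 (Efnb2, minus strand), chr4:141300971-141301220 (Epha2, plus strand) and chr14:31217623-31217872 (Sema3g, plus strand).
Efnb2: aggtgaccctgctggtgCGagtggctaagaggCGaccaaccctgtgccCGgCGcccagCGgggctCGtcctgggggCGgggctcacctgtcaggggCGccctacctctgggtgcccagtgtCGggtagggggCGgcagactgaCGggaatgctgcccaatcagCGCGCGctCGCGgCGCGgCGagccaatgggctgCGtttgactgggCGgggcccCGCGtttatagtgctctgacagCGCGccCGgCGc
Epha2: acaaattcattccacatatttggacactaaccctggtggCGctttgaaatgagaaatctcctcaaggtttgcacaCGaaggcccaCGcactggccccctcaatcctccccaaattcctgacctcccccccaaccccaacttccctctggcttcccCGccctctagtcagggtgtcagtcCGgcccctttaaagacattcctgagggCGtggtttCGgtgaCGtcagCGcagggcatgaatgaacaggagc
Sema3g: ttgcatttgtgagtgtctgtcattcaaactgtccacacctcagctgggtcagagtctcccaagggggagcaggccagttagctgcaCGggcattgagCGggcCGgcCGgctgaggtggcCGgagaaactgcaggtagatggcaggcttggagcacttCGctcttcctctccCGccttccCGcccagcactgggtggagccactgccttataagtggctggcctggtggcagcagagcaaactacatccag

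Efnb2 held 27 CpG in this window, Epha2 held 9 and Sema3g held 8. The median was 16 for the 60 genes of the set with an entry in the RefSeq promoter table and 6 over all 32851 promoters of that table.

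Accessible regions were found at 68 of the 70 genes. The 2 without any were Epha1 and Ephb4, both Eph receptors. Slit3, a secreted ligand of Robo receptors, carried the most (122 regions over 587 kb), followed by its receptor Robo1 (111 over 738 kb), the netrin receptor Dcc (84 over 1097 kb), the receptor tyrosine kinase Ephb1 (57 over 433 kb) and the plexin Plxna4 (49 over 444 kb). The genes of the set were long, with a median length of 63.7 kb against 17.6 kb for the other 20737 autosomal protein-coding genes, and carried a median of 10 regions against 2. Among genes of at least 100 kb, 33 of them in the set and 2339 outside it, the median density was 8.32 regions per 100 kb against 7.99.

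**Figure D1:**
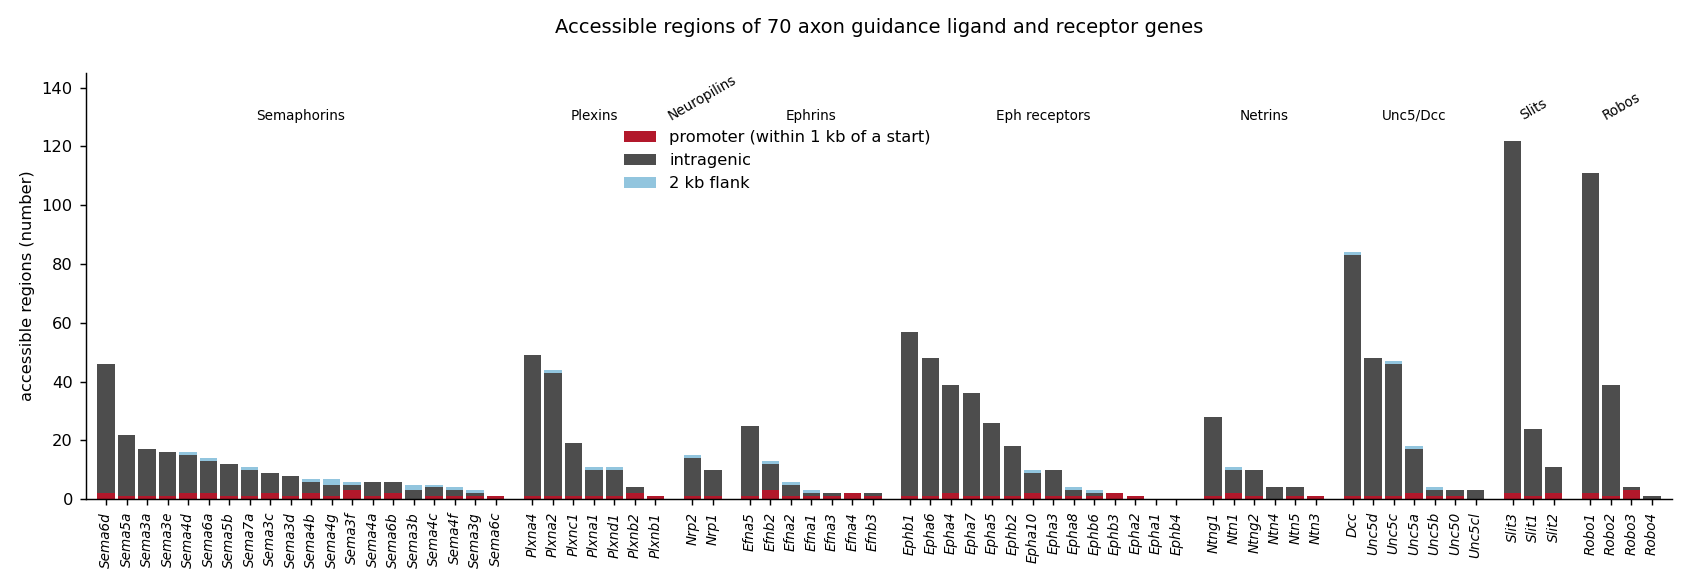
Number of accessible regions (vertical axis) at each of the 70 genes, grouped by family and divided into promoter, intragenic and flanking regions. Slit3 (122) and Robo1 (111) carry the most, and Epha1 and Ephb4 carry none.

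By family, the 20 semaphorin genes held 221 regions, the 7 plexins 139, the 2 neuropilins 25, the 7 ephrins 53, the 14 Eph receptors 254, the 6 netrins 58, the Unc5 and Dcc group 207, the 3 Slits 157 and the 4 Robos 155. The share of regions called in all 17 libraries was 20% (254 of 1269), against 25.0% of all kept regions. It ran from 16.8% in the Robos to 23.7% in the plexins, with the neuropilins at 36% on only 25 regions. By class, 69.8% of its promoter regions were called in all libraries, against 72.1% of promoter regions of other genes, and 16.3% of its intragenic regions, against 18%, whereas 22.2% of its 27 flanking regions were, against 16.3% of other flanking regions. In addition, 28 of the 1269 regions lay inside another protein-coding gene as well, and 13 had their strongest summit outside the gene and its flanks.

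A promoter called in all 17 libraries was found at 55 of the 70 genes (78.6%), against 56.4% of the other autosomal protein-coding genes. When peaks had to cover 50% of a merged region, the count was 10 (14.3%), against 11.1% of the other genes. The 55 included all 7 plexins, both neuropilins, 16 of 20 semaphorins, 11 of 14 Eph receptors, 5 of 7 ephrins, 3 of 6 netrins, 6 of 7 in the Unc5 and Dcc group, 2 of 3 Slits and 3 of 4 Robos. By median fold enrichment, the height of the peak over the library's local background, the strongest were the ligand genes Efna2 (44.5) and Efnb2 (25.3), the receptor genes Ephb1 (24.6) and Epha7 (23.8), and Unc50 (17.3). The Efna2 value belongs to a merged region of 58636 bases (chr10:80125088-80183723) that also spans Midn, Cirbp, Atp5d and other genes and has its summit 19.5 kb upstream of Efna2, and the Unc50 region also overlaps Coa5.

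The remaining promoters fell into 2 kinds. No promoter region was kept at Ntn4, Robo4, Sema3b and Unc5cl, beside Epha1 and Ephb4, which had no region at all. The others were called in some libraries only, and they were mostly ligands: Efna1 and Slit2 in 16 libraries, Ntng2 in 15, Efna4 in 14, Sema3c in 13, Sema3d in 12, Ntn1 in 10, Sema3g in 6 and the receptor Epha2 in 5. Efna1, Efna4 and Ntng2 were missing in cocaine libraries alone. Of these 9 promoters, male cocaine 2 lacked 6 and male cocaine 1 and diestrus cocaine 3 lacked 5 each, and these were the 3 libraries with the fewest peaks (75458, 87707 and 99789). The other libraries lacked between 0 and 4, and the part of the peak number was not tested. Slit2 was missing in diestrus control 1 alone and Efna1 in male cocaine 2 alone, whereas Sema3g, a class 3 semaphorin expressed mainly in vessels, was called in all 3 diestrus controls (fold enrichment 3.49, 3.57 and 3.01), in proestrus control 3 (2.65), in male controls 1 and 3 (3.44 and 3.62) and in no cocaine library.

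Of the 1269 regions, the libraries called between 431 (male cocaine 2) and 851 (male control 3). The share called was 57.2% ± 5.18 (SD, n = 3) in diestrus controls and 53.5% ± 9.24 (n = 3) after cocaine, 48.2% ± 2.40 (n = 3) in proestrus controls and 55.3% ± 4.24 (n = 3) after cocaine, and 64.5% ± 2.92 (n = 3) in male controls and 36.4% ± 3.45 (n = 2) after cocaine. The male groups did not overlap, and the libraries of the diestrus groups did. The proestrus groups narrowly did not, with the highest control at 50.35% and the lowest cocaine library at 50.43%. Over all kept regions the proestrus groups overlapped, with control 3 at 56.2% and cocaine 2 at 53.5%. The same order held for all kept regions, with 68.3% ± 3.25 in male controls and 39.3% ± 3.81 in male cocaine libraries. Promoter regions of the set varied less than its intragenic regions, from 91.1% ± 6.61 in male controls to 77.3% ± 0.822 in male cocaine libraries, where intragenic regions went from 62.5% ± 2.58 to 33.2% ± 3.79. Other genes were much the same, with promoter regions at 89.1% ± 2.32 and 78.8% ± 1.52 and intragenic regions at 63.0% ± 4.03 and 32.5% ± 4.08. The deposited files hold peaks and not reads, so a region without a peak may still be open, and fewer cells with an open region and less opening per cell cannot be told apart.

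**Figure D2:**
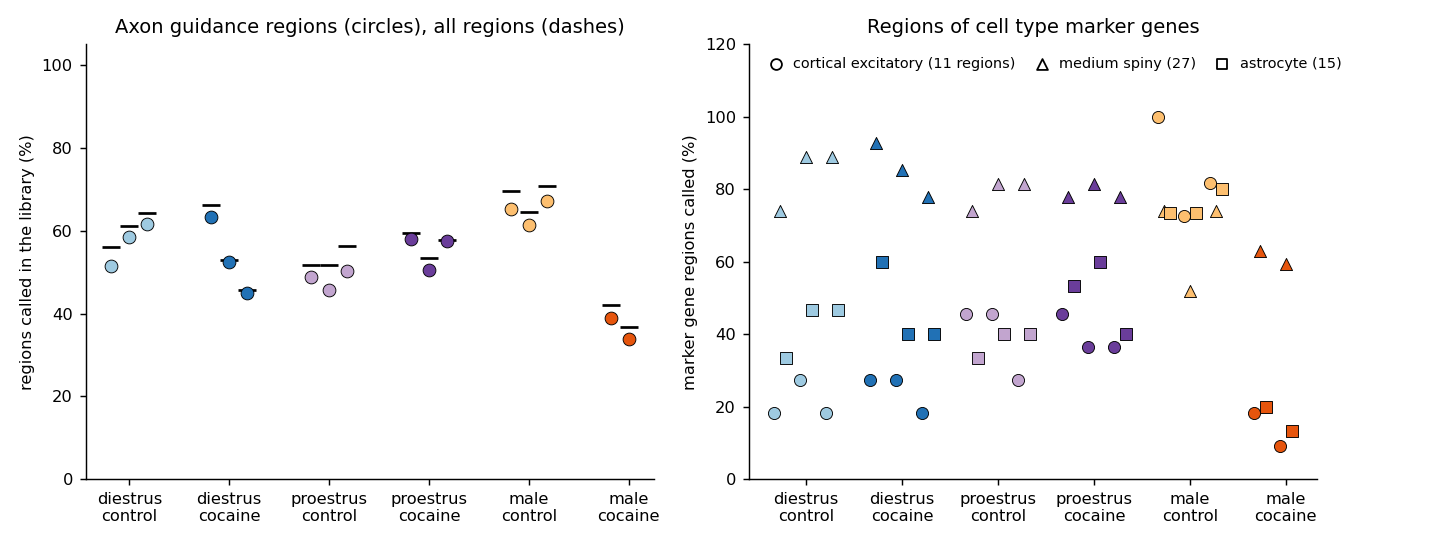
Left, percent of the 1269 axon guidance regions called in each library (circles) and of all 147420 regions (dashes), by group. Right, percent of regions called at marker genes of cortical excitatory neurons, medium spiny neurons and astrocytes. Axon guidance regions follow all regions, and male controls carry 8 to 11 of 11 cortical marker regions.

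To ask which regions were called more or less often after cocaine in any sex or stage, calls in the 8 cocaine and 9 control libraries were compared by Fisher's exact test (two-sided) at the 599 regions called in 4 to 13 libraries. None passed an adjusted p of 0.05, as none did among all 64304 regions tested (0%), and the smallest adjusted p in the set was 0.145. Over all regions the smallest p was 4.11e-05 (Fisher's exact test), the lowest that 8 against 9 libraries allow, and its adjusted p was also 0.145. The test could thus hardly pass any region, so the lack of calls does not show that the libraries were alike. Before adjustment, p was under 0.05 for 13 of the 599 with more calls after cocaine, beside 2452 of all 64304 (3.81%). It was under 0.05 for 42 of the 599 with fewer, beside 5933 of all (9.23%). The clearest was an intron of Epha10, an Eph receptor without kinase activity, at chr4:124888494-124890262. It was called in all 9 controls and in 1 of 8 cocaine libraries (Fisher's exact test, p = 0.000411). Introns of Sema3f, the repellent ligand of neuropilin 2, and of the netrin receptor Unc5a were each called in 9 controls and 2 cocaine libraries (Fisher's exact test, p = 0.00226).

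In the other direction, AP-1-bearing introns of Sema3a (chr5:13415655-13416107) and Robo1 (chr16:72897092-72897649) and an intron of Slit2 were each called in 5 cocaine libraries and no control (Fisher's exact test, p = 0.00905). At all 3, the calls came from diestrus cocaine libraries 2 and 3 and from the 3 proestrus cocaine libraries, with no male library among them. Fold enrichment in those libraries was low, between 2.46 and 3.61. An intron of Sema3d (chr5:12453421-12453797) was the reverse, called in 6 controls and no cocaine library, with its strongest peaks in the proestrus controls (fold enrichment 8.02, 6.50 and 5.21).

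Calls were next compared between 5 male and 12 female libraries whatever the treatment. No region of the set passed (0 of 599, and 0% of all regions), and the smallest adjusted p was 0.316. Over all regions the smallest p was 0.000162 (Fisher's exact test), the lowest that 5 against 12 libraries allow, with an adjusted p of 0.186. Here too the test could hardly pass any region. Before adjustment, p was under 0.05 for 12 of the 599 with more calls in males, beside 1042 of all 64304 (1.62%). It was under 0.05 for 26 of the 599 with fewer, beside 2841 of all (4.42%). An intron of Plxna2, a plexin for class 3 and class 6 semaphorins, with an AP-1 match (chr1:194734701-194735356), was called in no male library and in 11 of 12 female libraries (Fisher's exact test, p = 0.00097). Introns of Unc5c, Sema3d and Epha5 were called in 4 of 5 male libraries and in no female library. Between 6 diestrus and 6 proestrus libraries none of 558 regions passed (0% of all regions). The smallest p over all regions, 0.00216 (Fisher's exact test), is the lowest that 6 against 6 libraries allow, and it did not pass either. Before adjustment, p was under 0.05 for 0 of the 558 with fewer calls in diestrus, beside 102 of all 60288 (0.169%). It was under 0.05 for 2 of the 558 with more, beside 176 of all (0.292%). These were introns of Ntn1, called in 5 diestrus and no proestrus library, and of Slit3, called in 6 and 1 (Fisher's exact test, p = 0.0152 for both, adjusted p = 1).

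Within a sex and stage, 3 libraries against 3 cannot give an exact two-sided p below 0.1, so complete separation was counted without a test. A region was counted as gained when every cocaine library and no control called it, and as lost in the converse case. In diestrus, 16 regions of the set were gained (1.26%, beside 1.16% of all regions) and 13 lost (1.02% beside 1.26%). In proestrus, 32 were gained (2.52% beside 2.45%) and 13 lost (1.02% beside 1.64%). In males, 26 were gained (2.05% beside 1.66%) and 199 lost (15.7% beside 16.8%), with 2 cocaine libraries. The share of the set was furthest below that of all regions, in proportion, for the proestrus losses. The gains depended on the peak threshold: when only peaks with −log10 q of 5 or more were used they numbered 5 in diestrus (0.664%, beside 1.21% of all), 12 in proestrus (1.59% beside 2.29%) and 4 in males (0.531% beside 0.551%), and with an equal number of strongest peaks 10 (1.37% beside 1.57%), 12 (1.65% beside 2.38%) and 43 (5.91% beside 4.14%). Proestrus losses numbered 5 (0.664%, beside 1.05% of all) and 8 (1.10% beside 1.40%) in these settings.

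**Figure D3:**
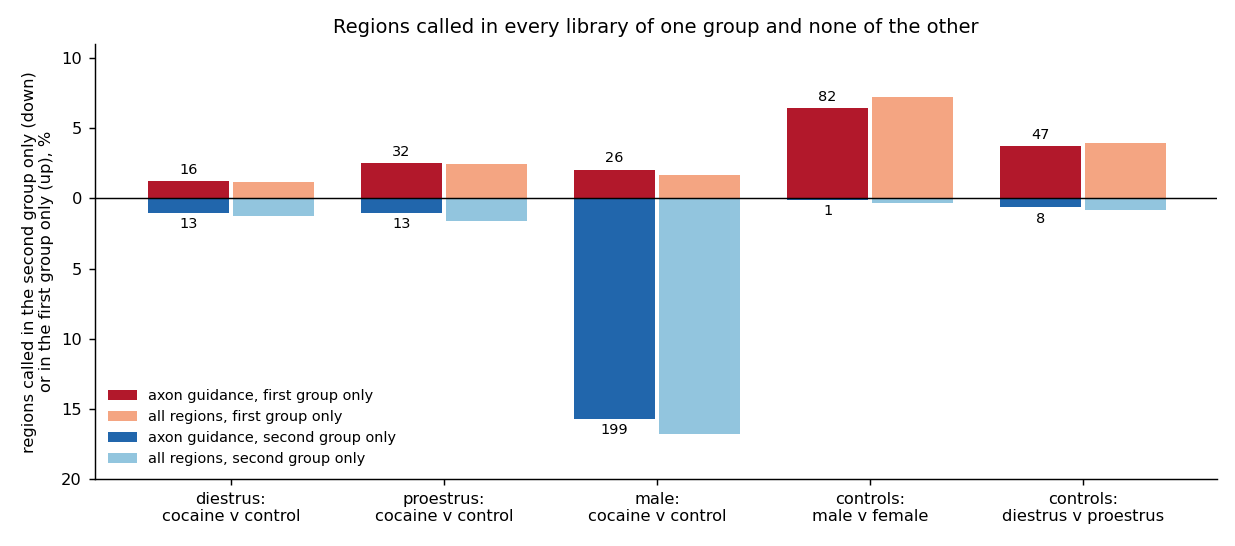
Percent of axon guidance regions (dark bars, with their number) and of all regions (light bars) called in every library of one group and in none of the other. The male loss after cocaine, 199 regions or 15.7%, is near the 16.8% of all regions.

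All gained regions of the set were intragenic, the class of 1156 of its 1269 regions. Gains at other autosomal protein-coding genes were mostly of this class too. Male gains there numbered 970 intragenic, 36 promoter and 27 flanking regions. The same classes held 1873, 96 and 55 proestrus gains and 778, 74 and 25 diestrus gains. In diestrus the gains of the set fell in 8 genes, most often in Dcc (5) and Robo1 (3). Of these 16 gains, 2 held an AP-1 match (12.5%, beside 21.7% of all regions gained in diestrus). In proestrus they fell in 17 genes, with 6 in Robo1, 4 in Unc5d and 3 in Sema3a, and 4 of 32 held a match (12.5%, beside 17.3% of all regions gained in proestrus). A gained intron of the neuropilin gene Nrp2 (chr1:62786144-62786729) had fold enrichment of 2.97, 4.03 and 2.87 in the diestrus cocaine libraries and was also called in all 3 proestrus cocaine libraries (5.01, 3.74 and 2.72), in proestrus control 3 and in male controls 1 and 2. Of the 26 regions gained in males, 13 lay in Dcc and none held an AP-1 match, beside 4.2% of all regions gained in males. Their median GC content was 29.3%, near the 29.7% of all regions gained in males and below the 43.3% of the whole set.

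Among the losses, the Sema3g promoter was the single promoter region in diestrus, and an intron of Robo1 (chr16:72804186-72804785) had the strongest peaks. That region had fold enrichment of 5.16, 3.68 and 4.46 in the diestrus controls and 14.7, 7.19 and 7.68 in the proestrus controls. After cocaine it was not called in diestrus, and in proestrus it was called in libraries 1 and 4 at 2.70 and 3.98. In proestrus, the 13 losses included a promoter region of Epha10, and an intron of Ntn1, the secreted netrin 1 (chr11:68247707-68248129), with 2.96, 3.83 and 3.13 in the controls. It was called in no male library.

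The 199 regions lost in males fell in 45 genes. By number, Slit3 led (38 of its 122 regions, 31.1%), then Unc5d (16 of 48, 33.3%), Robo1 (11 of 111, 9.91%) and Dcc (8 of 84, 9.52%). The share of all regions lost in males was 16.8%. The 199 included 5 of the 86 promoter regions of the set, beside 801 of 15449 promoter regions of other genes. The strongest in the male controls was an intron of Slit3 (chr11:35679636-35680629, fold enrichment 10.1, 10.7 and 13). Others were an intron of Epha7 (chr4:28895098-28896262, 7.65, 7.85 and 7.24), which was lost in diestrus as well, one of Nrp1 (chr8:128415636-128416568, 7.52, 7.85 and 7.35), one of Sema5a (chr15:32432777-32433676, 6.50, 7.99 and 5.71), one of Unc5d (chr8:28870727-28871743, 7.78, 6.2 and 5.38) and one of Sema3a (chr5:13262892-13263554, 6.76, 6.47 and 5.93). The last 2 were called in no other library of the 17.

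Many of these losses were regions that the female controls did not carry either. Of the 199, 74 (37.2%) were absent from all 6 female controls, beside 39.9% of all regions lost in males, and 24 (12.1%) were called in all 6. A total of 49 regions of the set (3.86%, beside 4.71% of all regions) were called in the 3 male controls and in none of the other 14 libraries, with 8 in Unc5d, 7 in Slit3, 5 in Sema6d and 4 in Efna5. Comparing controls alone, 82 regions were called in the 3 male and none of the 6 female controls (6.46%, beside 7.2% of all) and 1 in the converse case (0.0788%, beside 0.314%), the Ntn1 intron named above. The same libraries are those with 8 to 11 of 11 cortical marker regions called. When each library was cut to an equal number of strongest peaks, 728 regions of the set were kept. Male losses then numbered 71 (9.75%, beside 9.37% of all) and male gains 43 (5.91% beside 4.14%). Regions called in male and not in female controls numbered 42 (5.77% beside 6.14%). Without male cocaine library 1 or 2, the male gains from all peaks were 12 and 13. With 1 male cocaine library left, a gain was kept only where at least 2 libraries of a female group also called it. The lower counts are therefore set by this filter and do not measure stability.

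Between the control groups of both estrous stages, 47 regions were called in the 3 diestrus and no proestrus control (3.70%, beside 3.96% of all) and 8 in the converse case (0.630%, beside 0.792%). Among the strongest were introns of Unc5c (chr3:141800637-141801431, fold enrichment 7.87, 4.02 and 5.40 in diestrus controls), Ntng1 (chr3:109790243-109791092, 6.58, 4.47 and 4.77) and Slit3 (chr11:35213001-35213566, 6.07, 4.69 and 3.74). At all 3, diestrus cocaine libraries 2 and 3 lacked a call and library 1 had one. With an equal number of strongest peaks the counts were 24 (3.30%, beside 3.15% of all) and 4 (0.549% beside 1.05%).

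Leaving out a library moved these counts by over 1.5 times in several cases, upward in all but the male gains given above. Complete separation is easier to reach with fewer libraries, so these rises follow from its definition and do not measure stability. The diestrus gains came to 30, 32, 32, 27 and 37 without diestrus control 2, control 3, cocaine 1, cocaine 2 or cocaine 3. The diestrus losses came to 38, 37, 32 and 74 without control 1, control 2, control 3 or cocaine 1. The proestrus gains came to 55, 89 and 49 without cocaine 1, 2 or 4, and the losses to 41, 29, 24 and 20 without control 1, 2 or 3 or cocaine 2. For the controls, the diestrus count of 47 came to 84, 79 and 72 without diestrus control 1, 2 or 3, the proestrus count of 8 to 14, 22, 24 and 19 without diestrus control 3 or proestrus control 1, 2 or 3, and the single female region to 2, 4, 4, 2 and 2 without diestrus control 1, proestrus control 3 or male control 1, 2 or 3.

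In the set, 10 regions (0.788%) were gained in one sex or stage and lost in another, beside 0.665% of all regions. All 10 were gained in a female stage and lost in males, as were 97.6% of the 981 such regions among all. They lay in introns of Ntng1 (2 regions), Sema3a, Slit2, Unc5d, Epha6, Epha3 and Robo1 (2 regions) and in the 3′ UTR of Sema3e. At the Sema3e site (chr5:14253305-14253745) the proestrus cocaine libraries had fold enrichment of 2.70, 2.57 and 3.35 and the male controls 2.42, 3.72 and 2.85, with no call elsewhere. The intron of the receptor Epha6 (chr16:60043604-60044540), which held an AP-1 match, was called in all 6 female cocaine libraries, in 1 of 6 female controls, in the 3 male controls at 5.35, 5.51 and 6.15, and in no male cocaine library. The contrast between sexes at these regions was not tested.

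At the 254 regions called in every library, peak height could be compared. Fold enrichment of the strongest peak was quantile-normalised between libraries and log2 values were fitted with limma over all 36847 such regions, with Benjamini-Hochberg adjustment over all of them. Of the 254, 11 were higher and 10 lower after cocaine in diestrus, or 8.27% in all, beside 6.65% higher and 6.36% lower (13% in all) among the 36847 regions. In proestrus 8 were higher and 6 lower, or 5.51%, beside 2.57% and 2.44% (5.01% in all). In males 7 were higher and 12 lower, or 7.48%, beside 3.54% and 5.06% (8.6% in all). The median log2 difference of the set was 0.01, 0.02 and 0.03. Promoters carried 7 of the 11 increases in diestrus and 4 of the 10 decreases: 18.3% of the 60 promoter regions of the set passed, beside 17.9% of 11133 promoter regions of other genes, where 1367 rose and 630 fell. With median centring of each library, the diestrus split was 9 higher and 3 lower and the male split 14 and 9, and with centring in GC bins the male split was 11 and 12, so that neither balance of directions holds across scalings.

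Which library entered mattered. Without diestrus cocaine 3 no region of the set passed in diestrus, without cocaine 2 there were 1 and 1, and without cocaine 1 there were 32 higher and 28 lower. The increases came to 7 and 3 without diestrus control 1 or 3, and the decreases to 2 and 0 without control 2 or 3. The proestrus counts were 3 and 0, 4 and 1, and 5 and 1 without controls 1, 2 and 3, 3 and 2 and 5 and 3 without cocaine 1 and 4, and 17 higher without cocaine 2. Proestrus decreases numbered 13 and 10 without diestrus cocaine 1 or 3, and 2 without male control 3, male cocaine 1 or male cocaine 2. The male increases numbered 4, 3, 2, 2 and 1 without male controls 1 to 3 and cocaine 1 and 2, the decreases 6, 5 and 3 without control 3, cocaine 1 and cocaine 2, and the increases 13, 11 and 12 without diestrus cocaine 1, diestrus cocaine 3 or proestrus cocaine 2. With 1 male cocaine library left, that library was assumed to vary like the other groups. The calls that held in every such fit were both Sema3c introns and the Epha5 intron in proestrus, and the Slit3 intron at chr11:35260521-35264209 and the Plxna4 intron in males.

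After cocaine, 48 regions of the set in 30 genes passed an adjusted p of 0.05 in at least 1 sex or stage (18.9%, beside 23.5% of the 36847 regions). Of the 48, 43 passed in 1 (89.6%, beside 87.8% of all regions that passed), 4 in 2 (8.33% beside 11.1%), and 1, an intron of Sema3c, in all 3 (2.08% beside 1.11%). The estimates of 27 of the 48 had the same sign in diestrus, proestrus and males (56.2%, beside 34.6% of all regions that passed), a description without a test. Of the 21 diestrus, 14 proestrus and 19 male calls, 12, 10 and 16 remained with median centring and 17, 6 and 17 with centring in GC bins. An AP-1 match was held by 1 of the 11 increases in diestrus, 3 of 8 in proestrus and 3 of 7 in males. It was held by 0 of the 10, 6 and 12 decreases. Of all kept regions 10.1% held a match, and the share among all regions that passed is not given here, so a link to AP-1 was not tested.

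**Figure D4:**
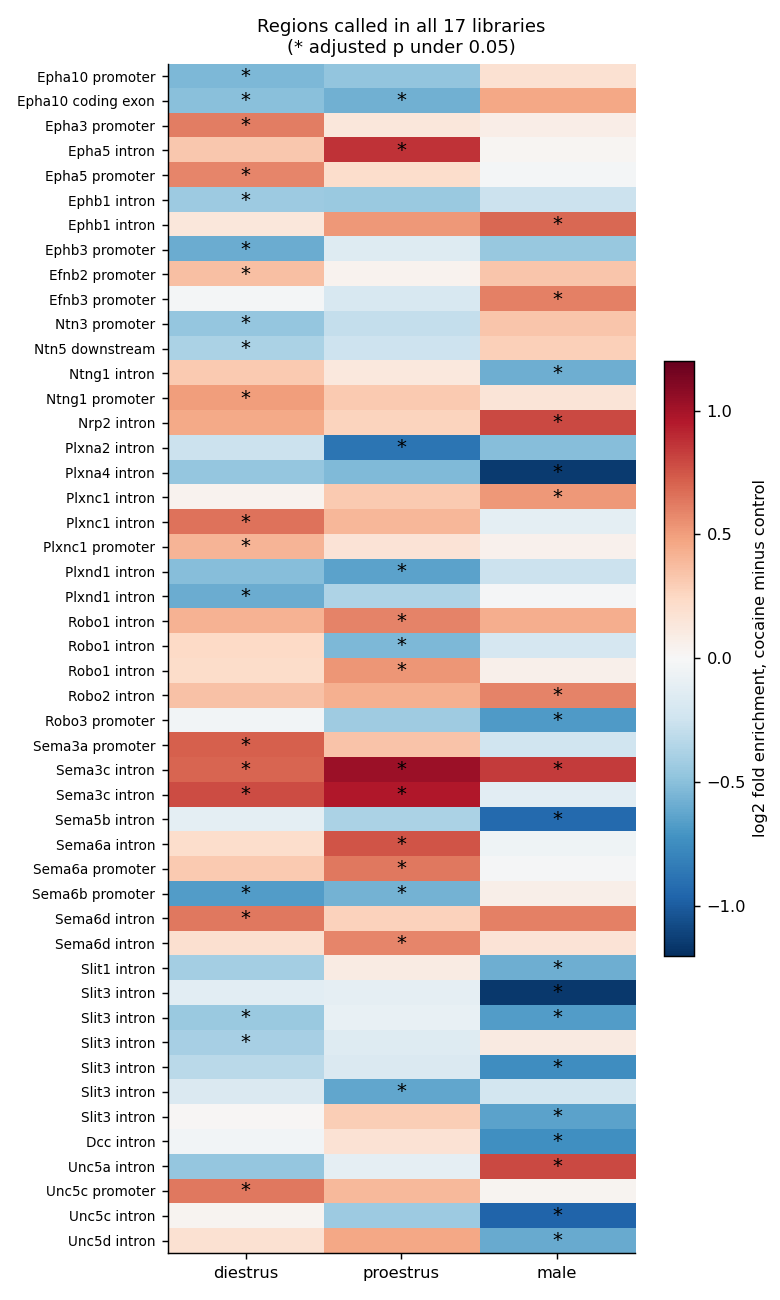
Log2 difference of normalised fold enrichment, cocaine minus control, in diestrus, proestrus and males (colour scale) at the 48 axon guidance regions that passed an adjusted p of 0.05 (limma, asterisks) in at least 1 of them. The Sema3c intron is the region with asterisks in all 3 columns.

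Among the regions that passed in females, the largest increases were in Sema3c. This gene encodes a secreted class 3 semaphorin, a ligand of neuropilins and plexins. Its intron with the AP-1 match shown above (chr5:17691784-17692486, 117 kb into the gene) had normalised fold enrichment of 3.63, 3.73 and 3.93 in diestrus controls and 5.50, 6.74 and 7.34 after cocaine, and of 4.32, 2.92 and 4.17 in proestrus controls and 8.55, 6.43 and 7.07 after cocaine. In both stages every cocaine library stood above every control. The male libraries overlapped, at 3.51, 4.60 and 3.96 in controls and 4.15 and 3.25 after cocaine. The log2 difference was 0.78 ± 0.18 (SE; limma adjusted p = 0.00647) in diestrus and 0.96 ± 0.18 (adjusted p = 0.0043) in proestrus. The male minus female difference was -0.996 ± 0.24 (limma adjusted p = 0.00514). The diestrus call was lost without diestrus cocaine 3 (adjusted p = 0.0611) and the call between sexes without male cocaine 2 (0.0755).

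A neighbouring intron of Sema3c (chr5:17673481-17674425, 99.1 kb into the gene) rose in all 3. Normalised fold enrichment was 6.49, 6.70 and 5.62 in diestrus controls and 8.26, 10.3 and 12.3 after cocaine, 6.34, 4.43 and 4.28 in proestrus controls and 10.6, 8.60 and 11.2 after cocaine, and 3.06, 5.27 and 3.61 in male controls and 8.04 and 5.98 after cocaine. The groups did not overlap within any sex or stage. The log2 differences were 0.70 ± 0.19, 1.03 ± 0.19 and 0.84 ± 0.22 (limma adjusted p = 0.0181, 0.0047 and 0.0128). The diestrus call was lost without diestrus control 3, cocaine 2 or cocaine 3 (adjusted p up to 0.153) and the male call without male control 1, control 3 or cocaine 1 (up to 0.239), and the proestrus calls of both Sema3c introns held whichever library was left out.

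The promoter of Sema3a, the classical repellent of neuropilin 1 (chr5:13398179-13401567), rose in diestrus from 3.92, 4.43 and 4.40 to 5.23, 6.93 and 9.35, by 0.72 ± 0.18 on the log2 scale (limma adjusted p = 0.0114, lost without diestrus cocaine 2 or 3, at up to 0.147). Sema6b, a transmembrane semaphorin, changed in the opposite direction. Its promoter region with an intronic summit (chr17:56131169-56135548) had 8.78, 8.80 and 10.1 in diestrus controls against 7.34, 5.99 and 4.34 after cocaine, and 9.78, 8.12 and 8.99 in proestrus controls against 5.84, 5.61 and 6.69 after cocaine. It fell by 0.67 ± 0.17 in diestrus and by 0.57 ± 0.17 in proestrus (limma adjusted p = 0.00939 and 0.0404), and the proestrus call was lost with median centring in GC bins (adjusted p = 0.167), and without any 1 of the 6 proestrus libraries, male control 3 or either male cocaine library (at up to 0.152). The diestrus call was lost without diestrus control 3 or cocaine 3 (at up to 0.13). In males it lay at 6.31, 5.62 and 6.50 in controls and at 6.39 and 6.52 after cocaine, near the female cocaine values. An intron of the transmembrane ligand Sema6a with an AP-1 match rose in proestrus from 2.76, 3.06 and 3.29 to 5.84, 4.31 and 5.26, by 0.75 ± 0.16 (limma adjusted p = 0.00871, or up to 0.0587 without proestrus control 1 or cocaine 1). An intron of Sema5b fell in males from 6.82, 6.34 and 6.50 to 3.86 and 3.06, by 0.93 ± 0.18 (adjusted p = 0.00101, or 0.0756 without male cocaine 2).

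**Figure D5:**
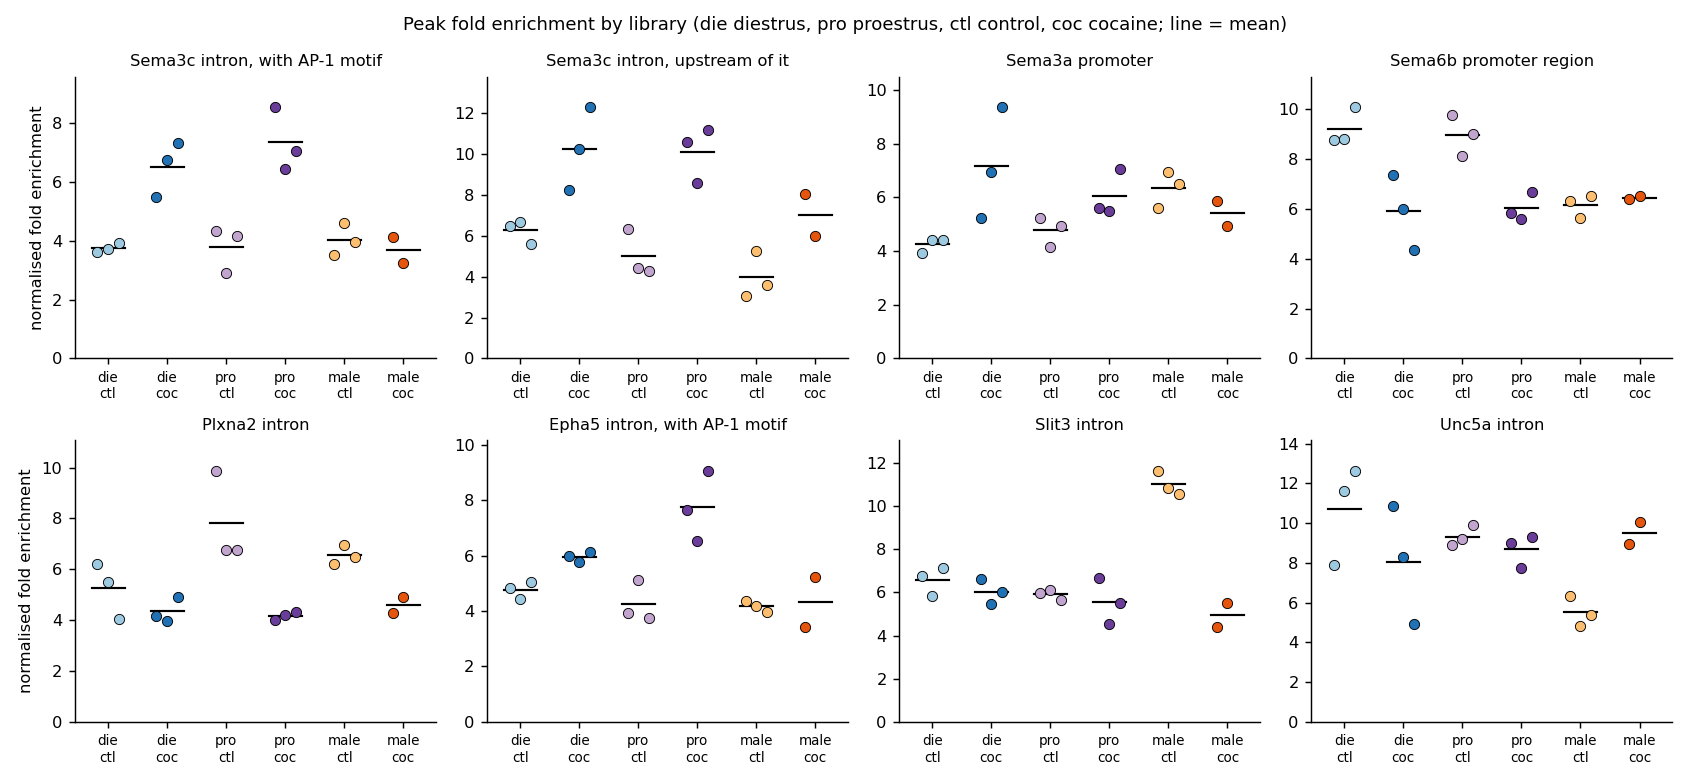
Normalised fold enrichment (vertical axis, from 0) in each library at 8 axon guidance regions, by group, with the group mean as a line. Both Sema3c introns are higher in every female cocaine library than in every control of the same stage, and the Slit3 intron stands at 10.6 to 11.7 in male controls alone.

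On the receptor side, an intron of the neuropilin Nrp2 with an AP-1 match (chr1:62788265-62789336) rose in males from 4.36, 3.94 and 4.67 to 6.62 and 8.39, by 0.79 ± 0.20 (limma adjusted p = 0.0116, lost without male control 2 or cocaine 2, at up to 0.202). In females it had 4.68 to 5.34 in diestrus controls and 5.50 to 8.90 after cocaine, and the proestrus groups, at 3.89 to 5.61 and 5.02 to 6.02, overlapped. Neither female difference passed. An intron of Plxna2 (chr1:194675200-194676639) fell in proestrus from 9.88, 6.78 and 6.76 to 4.02, 4.19 and 4.32, by 0.88 ± 0.18 (adjusted p = 0.00673, or 0.0571 without proestrus control 1). An intron of Plxna4, a plexin that transduces Sema3a (chr6:32359443-32361040), fell in males from 7.95, 7.73 and 8.75 to 3.58 and 3.78, by 1.14 ± 0.19 (limma adjusted p = 0.00015), and this call held without each library in turn. Introns of Plxnd1, the receptor of Sema3e, fell in diestrus (chr6:115982463-115986113, by 0.59 ± 0.18) and, at another site, in proestrus (chr6:115977345-115979790, by 0.64 ± 0.19), the second not past the threshold with centring in GC bins (adjusted p = 0.138). The former call was lost without diestrus control 2 or 3 or cocaine 2 or 3, and the latter without diestrus control 2 or 3, proestrus control 1, 2 or 3, proestrus cocaine 1 or 2, male control 3 or either male cocaine library.

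Among ephrins and their receptors, promoters of receptor genes moved in diestrus in both directions. The Epha5 promoter (chr5:84411570-84418232) rose from 11.9, 13.5 and 10.5 to 14.7, 20.5 and 19, by 0.58 ± 0.13 (limma adjusted p = 0.00647). The Epha3 promoter (chr16:63862859-63864787) rose from 5.13, 4.83 and 3.74 to 6.50, 6.43 and 7.90, by 0.61 ± 0.16 (adjusted p = 0.0142). The promoter of Epha10 (chr4:124879831-124883153) fell from 12.4, 8.92 and 10.2 to 8, 7.14 and 6.45, by 0.54 ± 0.15 (limma adjusted p = 0.016). The Ephb3 promoter fell by 0.60 ± 0.20 (adjusted p = 0.04), a call lost with median centring (0.058) and in 7 of the 17 fits that left out a library (at up to 0.307). The groups did not overlap at Epha5, Epha3 or Epha10. The ligand promoter Efnb2 rose by 0.36 ± 0.12 (limma adjusted p = 0.0381), with 22.4, 22.5 and 20.2 in controls and 24.3, 31.6 and 28 after cocaine, and this call was lost with median centring (adjusted p = 0.0552). The calls at Epha5, Epha3, Epha10 and Efnb2 were each lost without diestrus cocaine 2 or 3 or control 3, that of Epha10 also without control 1, and that of Efnb2 also without control 1 or 2, with adjusted p of up to 0.0687 (Epha5), 0.116 (Epha3), 0.117 (Epha10) and 0.223 (Efnb2).

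A region over a coding exon of Epha10 (chr4:124890390-124896537), which also spans the gene 1700125G02Rik, fell in diestrus by 0.51 ± 0.17 and in proestrus by 0.57 ± 0.17 (limma adjusted p = 0.0456 and 0.0434). Each of these calls was lost in 9 of the 17 fits that left out a library (adjusted p up to 0.317 without diestrus cocaine 3 and 0.195 without proestrus control 3), with median centring (0.0678 and 0.0546) and with centring in GC bins (0.0829 and 0.0847). In males it lay at 10.3, 8.10 and 10.6 in controls and at 12.5 and 13.9 after cocaine, and the male minus female difference was 1.00 ± 0.23 (limma adjusted p = 0.0036), which held without each library in turn. The AP-1-bearing intron of Epha5 shown above (chr5:84307846-84308498) rose in proestrus from 3.94, 5.11 and 3.73 to 7.64, 6.54 and 9.07, by 0.86 ± 0.17 (adjusted p = 0.0068, at most 0.0438 without any 1 library). In diestrus it had 4.43 to 5.04 in controls and 5.77 to 6.14 after cocaine and did not pass, and its male groups overlapped. An intron of Ephb1 rose in males from 3.15, 3.18 and 3.12 to 4.42 and 5.83, by 0.69 ± 0.19 (limma adjusted p = 0.0226, lost without male control 2 or 3 or cocaine 2, at up to 0.294).

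Netrin receptors differed by site. The Unc5c promoter (chr3:141463658-141466754), which overlaps Gm15688, rose in diestrus from 8.36, 9.99 and 7.86 to 9.66, 16.1 and 15.7, by 0.63 ± 0.16 (limma adjusted p = 0.0118). Cocaine library 1 lay within the control range, and the call was lost without diestrus control 3, cocaine 2 or cocaine 3 (at up to 0.111). An intron of Unc5c (chr3:141620222-141620988) fell in males from 5.13, 7.20 and 6.13 to 3.43 and 2.87, by 0.96 ± 0.18 (adjusted p = 0.000938, or 0.0586 without male cocaine 2). An intron of Unc5a (chr13:54983504-54985428) rose in males from 6.31, 4.82 and 5.40 to 8.94 and 10.0, by 0.79 ± 0.22 (limma adjusted p = 0.0208), beside 8.88, 9.19 and 9.90 in the proestrus controls. This call was lost without male control 2 or 3 or either male cocaine library (at up to 0.197). An intron of Dcc fell in males from 5.50, 5.04 and 6.24 to 3.43 and 3.25, by 0.74 ± 0.19 (adjusted p = 0.0127, lost without male control 3 or either male cocaine library, at up to 0.138). Among the ligands, the Ntng1 promoter rose in diestrus by 0.50 ± 0.17 (limma adjusted p = 0.0454, or up to 0.223 with 1 library left out, past the threshold in 7 of 17 such fits). A region at Ntn3 (chr17:24202684-24213699) fell there by 0.47 ± 0.14 (limma adjusted p = 0.0278, lost without diestrus control 2 or 3 or cocaine 2 or 3, at up to 0.214, and with median centring, at 0.0631), and the region also spans Tbc1d24 and BC028777. The region of Ntn5 that passed is a wide one over Dbp and Sphk2 whose summit lies outside Ntn5, so its value is not ascribed to Ntn5. Ntn5 also had a promoter region of its own, 848 bases wide and called in all 17 libraries.

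For the Slits and Robos, the Slit genes held 5 of the 12 male decreases. That is 17.2% of their 29 regions tested, beside 5.06% of all regions, a description without a test. These decreases lay in Slit3 and Slit1. The intron of Slit3 at chr11:35260521-35264209 had 11.7, 10.8 and 10.6 in male controls, 4.42 and 5.51 after cocaine, and between 4.54 and 7.12 in the 12 female libraries. It fell in males by 1.16 ± 0.18 (limma adjusted p = 9e-05), was higher in male than in female controls by 0.82 ± 0.14 (adjusted p = 8.09e-05), and all 3 male controls stood above every other library. A further intron (chr11:35281954-35284281) fell in males from 13.5, 13.7 and 13.2 to 8.27 and 8.65, by 0.67 ± 0.15 (limma adjusted p = 0.00536), and in diestrus from 12.6, 12 and 12.7 to 10.8, 8.80 and 8.05, by 0.45 ± 0.14 (adjusted p = 0.0308). The male call was lost without either male cocaine library (at up to 0.0853) and the diestrus call without any diestrus control, cocaine 2 or cocaine 3 (at up to 0.203) and with median centring, alone (0.0525) or in GC bins (0.0822). Of the receptors, an intron of Robo1 (chr16:72429516-72431285) rose in proestrus from 6.97, 7.36 and 6.18 to 9.78, 10.4 and 10.8, by 0.59 ± 0.16 (limma adjusted p = 0.0257, or 0.172 with centring in GC bins, and lost without any 1 of the proestrus libraries except cocaine 2, at up to 0.107). The AP-1-bearing intron of Robo2 (chr16:74084276-74085586) rose in males from 4.16, 4.82 and 4.23 to 6.88 and 6.38, by 0.59 ± 0.17 (adjusted p = 0.0288, lost without male control 1 or 3 or either male cocaine library, at up to 0.206). Its female values, at 5.93 to 6.67 in controls and 6.99 to 9.90 after cocaine, did not pass.

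The difference between sexes in the response to cocaine was tested directly, as the male difference minus the mean of both female differences. In the set, 13 regions were higher and 16 lower by this test (11.4%), beside 9.81% higher and 9.9% lower among all regions (19.7% in all). The lower ones included introns of Sema3c, Slit3, Unc5d, Unc5c and Robo1, and the higher ones included Epha10, an Unc5a intron and the promoter of Ephb1. Of the 29 calls, 2 held without each library in turn, the Slit3 intron and the Epha10 region. With centring in GC bins the split was 9 higher and 18 lower, 16 of the 29 calls remained, and that of the Ephb1 promoter was lost (adjusted p = 0.0724). Without male cocaine 2 the counts were 1 and 4, without male cocaine 1 or male control 2 they were 3 and 10, without diestrus cocaine 1 they were 23 and 27, and without proestrus cocaine 2 there were 22 higher. The male controls and the female controls enter this test, so its calls share libraries with the comparison of controls.

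Between male and female controls, 26 regions were higher in males and 27 lower (20.9%), beside 13.1% and 12.6% of all regions (25.8% in all). An intron of Slit1 (chr19:41697095-41698420) had 10.4, 8.10 and 10.1 in male controls and 4.32 to 6.19 in the 6 female controls, a difference of 0.92 ± 0.15 (limma adjusted p = 3.76e-05). The promoter of Robo3, a receptor of commissural axons (chr9:37430498-37431328), had 10.2, 11.3 and 10.4 in male controls, 5.66, 4.94 and 3.45 in diestrus controls and 7.86, 7.36 and 7.46 in proestrus controls. It was higher in males by 0.85 ± 0.14 (limma adjusted p = 7.77e-05), and lower in diestrus than in proestrus controls, with a log2 difference of -0.72 ± 0.17 (adjusted p = 0.0371). In males it fell after cocaine to 6.74 and 6.52, by 0.68 ± 0.19 (limma adjusted p = 0.0191, lost without male control 2 or 3 or either male cocaine library, at up to 0.159). Introns of Slit2 (0.78 ± 0.14) and Nrp2 (0.83 ± 0.16) were also higher in males.

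The regions lower in male controls included introns of Unc5a (-0.85 ± 0.17), Ephb1 (chr9:102215296-102216149, -0.78 ± 0.15), Epha8 (-0.66 ± 0.15), Slit3 (chr11:35387577-35390271, -0.57 ± 0.11) and Plxnc1. The last, in the gene of the Sema7a receptor and with an AP-1 match shown above (chr10:94791718-94795741), had 8.80, 9.94 and 11 in male controls and 12.1 to 19 in female controls, with no overlap (-0.54 ± 0.13, limma adjusted p = 0.00236). The AP-1-bearing intron of Unc5c (chr3:141818830-141820120) was higher in male controls, at 7.52, 7.59 and 8.86 against 3.89 to 6.90 (0.52 ± 0.14, adjusted p = 0.00763, lost without male control 3). Without male control 2 the counts were 16 and 11, and without male control 3 they were 11 and 13. Between diestrus and proestrus controls 1 region was higher and 1 lower (0.787%), beside 0.516% and 0.176% of all (0.692% in all). These were the Robo3 promoter and the Sema6a intron named above, which was higher in diestrus by 0.69 ± 0.16 (limma adjusted p = 0.0371). With median centring, alone or in GC bins, none was higher and 1 lower. Neither passed without any 1 of the 6 female controls or without male control 3.

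Among other genes of axon guidance signalling, a list of 53 held 1115 regions, 279 of them called in all libraries. The list holds downstream effectors and also cues and receptors outside the symbol rule, such as Rgma, Draxin, Neo1 and Dscam. In diestrus 1 was higher, the promoter of Rasa1 (0.34 ± 0.11), and 13 lower (5.02% in all), among them the promoters of the actin regulators Limk1 (-0.54 ± 0.12) and Cfl1 (-0.37 ± 0.13) and of Rnd1 (-0.58 ± 0.15) and Vav2 (-0.52 ± 0.16). In proestrus 2 were higher and 9 lower (3.94%), in males 4 and 12 (5.73%), by the male minus female test 20 and 11 (11.1%), between male and female controls 22 and 32 (19.4%), and between stages none (0%). An intron of Nck2, an adaptor of Eph and other receptors, rose in proestrus by 0.64 ± 0.17 and fell in males by 0.89 ± 0.20, with a male minus female difference of -1.31 ± 0.23 (limma). Each of these shares lay below the share of all regions printed above, and so did the shares of the set except in proestrus and between stages.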

How the data were processed

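ATAC-seq libraries of NeuN-positive nuclei were processed by the authors, who trimmed adapters, aligned reads to mm10 with BWA and ran the MACS2 peak caller on each library (versions not given in the sources used here); featureCounts and DESeq2, also named in the submitters' notes, were for their own later steps. Each deposited peak carries a score, a fold enrichment (a ratio of summit pileup to local background) and −log10 p and q values, computed by the authors within that library. The deposited files hold no read counts, so depth is unknown and calls and fold enrichment were compared instead.

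Here, overlapping peaks were merged and kept when called in at least 2 libraries of 1 group. Annotation was GENCODE M21, sequence GRCm38. Calls were compared by two-sided Fisher's exact test and log2 fold enrichment, quantile-normalised, by limma 3.58.1 (R 4.3.3, 6 group means, moderated with a trend), with Benjamini-Hochberg adjustment over all regions tested. A library with several peaks in a region gave its strongest. The scripts were tested on simulated data. With simulated log2 changes of 0.5 and 1 in diestrus cocaine libraries, limma recovered 4 and 69 of 100 changed regions. Only 100 of 36847 regions were changed at each size, whereas 13% passed in the diestrus data. The adjustment was thus stricter in the simulation, and these shares do not measure the sensitivity in the real data. A region that did not pass in a sex or stage may still have changed there. Alternatives were peaks of −log10 q of at least 5, an equal number of strongest peaks, 50% coverage of a region, all merged regions, median centring alone or in 20 GC bins, a replicate block, strata, other promoter definitions and leaving out each library. The comparisons of controls by complete separation were added after the data were seen. Nothing says beyond the pooling of 3 animals how libraries of a group differ, so p-values measure the spread between these libraries.

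The genes, lists and tests were chosen with earlier results of these data known. The text names genes without a constant promoter, the 5 with most regions and the 5 strongest promoters, up to 5 regions per direction and comparison, smallest p first and 1 per gene, the strongest separated regions, and regions gained in one group and lost in another; others were named after their values were seen. One marker gene of the cortical list is not reported here. Python 3.11.15, numpy 2.4.6, pandas 2.3.3 and pysam 0.24.0 were used.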

Additional observations from a re-analysis of the deposited data

Results flagged for a closer look

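The male minus female cocaine difference passed at 13 regions in the higher and 16 in the lower direction (limma, adjusted p under 0.05), a difference between groups tested directly. That is 11.4% of the set, beside 19.7% of all regions, and without male cocaine 2 the counts were 1 and 4. Of the regions named, the log2 values were -0.996 for the Sema3c intron with an AP-1 match, -1.04 for the Slit3 intron, -0.93 for an Unc5d intron, -0.87 for an Unc5c intron and -0.83 for a Robo1 intron. They were 1.08 for the Unc5a intron, 1.00 for the Epha10 exon region, 0.71 for the Ntn3 region, 0.60 for the region assigned to Ntn5 and 0.49 for the Ephb1 promoter. At the Slit3 intron all male controls (10.6 to 11.7) lay above the female controls (5.66 to 7.12) and at the Unc5a intron below them (4.82 to 6.31 against 7.90 to 12.6), while at the Sema3c intron the male controls (3.51 to 4.60) reach from within the female controls (2.92 to 4.32) to just above them.

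The 10 regions gained in a female stage and lost in males (0.788% of the set, beside 0.649% of all regions) were picked for moving oppositely in every library of the groups concerned, so the pattern is their definition, and the difference was not tested. Groups of 2 or 3 libraries are too small for a check of single outlying libraries.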

How the results depend on the processing

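No estimate of a single named region changed sign. The balance of higher and lower counts turned in males with median centring (14 and 9, against 7 and 12), in diestrus with the stricter q value described next (9 and 11, against 11 and 10) and in proestrus with an equal number of strongest peaks (5 and 6, against 8 and 6). Over the alternatives, values for single named regions kept their call 1388 times and lost it with the same direction 312 times. Many of these fits left out a library outside the groups compared. Calls that held whichever library was left out numbered 0 of 21 in diestrus, 3 of 14 in proestrus and 2 of 19 in males. They numbered 2 of 29 for the male minus female difference, 18 of 53 between male and female controls and 0 of 2 between stages. With peaks of −log10 q of at least 5, gains came to 5 in diestrus, 12 in proestrus and 4 in males, proestrus losses to 5, regions of proestrus controls alone to 3, male decreases to 6 and increases between stages to 0. With an equal number of strongest peaks, gains came to 10 in diestrus, 12 in proestrus and 43 in males, losses to 8 in proestrus and 71 in males, regions of male or female controls alone to 42 and 2, those of diestrus or proestrus controls alone to 24 and 4, proestrus increases to 5 and increases between stages to 0. With 50% coverage, male gains came to 15, regions of female controls alone to 3 and promoters called in all libraries to 10, since a narrow peak in a wide merged region no longer counts. Median centring gave 3 diestrus decreases, 14 male increases and 0 between stages, and centring in GC bins gave 11 and 0 for the last 2. The numbers of the titles did not pair the libraries: the mean correlation of 36 same-numbered pairs was 0.0023, 5 pairs were over 0.1, and 8 of 17 libraries correlated best with their own number. The replicate block gave 4 increases and 3 decreases in proestrus and changed no other count by over 1.5 times.

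Leaving out each library gave ranges of 19 to 37 gains and 14 to 74 losses in diestrus, 39 to 89 and 18 to 41 in proestrus, and 12 to 35 and 226 to 295 in males, 82 to 118 and 1 to 4 regions between sexes and 56 to 84 and 9 to 24 between stages. Of higher and lower regions it gave 0 to 32 and 0 to 28 in diestrus, 3 to 17 and 0 to 13 in proestrus, 1 to 13 and 3 to 17 in males, 1 to 23 and 4 to 27 for the male minus female difference, 11 to 30 and 11 to 30 between sexes and 0 to 1 and 0 to 1 between stages. Promoters called in all libraries ranged from 55 to 56, and tests of calls gave 0 to 0. Complete separation is easier to reach with fewer libraries, so the ranges of gained and lost regions do not measure stability. The lowest count of male gains came from the rule that 2 libraries of a group call a region. Groups of 2 or 3 libraries and unknown depth limit every comparison.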
